A study of Arabidopsis thaliana with 3 samples.

Results

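SPL10 peaks that lie in noncoding RNA genes and pseudogenes of Arabidopsis thaliana were taken from the shared peaks of 2 precipitated samples. A replicate 1 peak counted as shared when it and a replicate 2 peak each covered at least 50% of the other. It was kept when the mean of both summits fell inside a gene that the RefSeq table types as noncoding RNA or pseudogene and inside no protein-coding gene. Summits in the pericentromeric spans were left out (13 to 17 Mb of chromosome 1, 2 to 5.5 Mb of chromosomes 2 and 4, 11.5 to 16 Mb of chromosome 3 and 10 to 14 Mb of chromosome 5). This gave 697 peaks in 583 genes, of 16697 shared nuclear peaks in all and 14388 outside the spans. Of the remaining peaks outside the spans, 5516 had an intergenic summit and 8175 had a summit in a coding gene.

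The samples were leaf material of the Col-0 ecotype, with no genotype or treatment other than precipitation named in the labels. They comprised 2 SPL10 precipitations and 1 input. The assay was labelled DAP-seq, in which a tagged transcription factor pulls down genomic fragments, while the labels' protocols describe formaldehyde fixation and sonication of chromatin. Nothing states that the precipitations came from separate plants, so the spread between them may be technical.

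SPL10 belongs to the SQUAMOSA promoter binding protein-like family, whose SBP domain recognises DNA with a GTAC core, and its messenger RNA is a target of miR156. The family is known for the change from juvenile to adult leaves and for leaf shape. Long noncoding RNA genes, microRNA genes and tRNA genes are transcribed without making protein, and pseudogenes are remnants of coding genes or of mobile elements. A summit in such a gene is a position on DNA; it does not show that SPL10 regulates that gene or the nearest coding gene, and no expression data were used here.

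The lists held 21574 peaks for replicate 1 and 21439 for replicate 2, with median widths of 311 and 310 bp. The number of tags (sequenced fragments piled up at a summit) was recovered from the deposited values, with a median of 47 for nuclear summits of replicate 1 and 44 for those of replicate 2. The caller's genome-wide background was 10.2 tags in both lists, on the scale of the background library. For the fold, precipitated tags are divided by 1.26 in replicate 1 and by 1.18 in replicate 2. Tags are printed here before that division. Where the local background at a peak was higher than 10.2, even by a small margin, it is called raised below. Fold means the authors' enrichment at the summit over the caller's background for that peak. Intervals on a fold are exact Poisson 95% intervals on the tags; they cover counting error of the precipitated tags only. No summit held more than 396 tags in either list, so the order of the strongest is compressed, and no interval is given for the 33 members nearest to that ceiling in either replicate.

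Pseudogenes held most of the noncoding summits, and they also cover most of the noncoding gene DNA outside coding genes and spans. Of 4803 kb of such DNA, the type pseudogene covers 2755 kb and transcribed pseudogene 677 kb. The type pseudogene had 405 of the 697 members (58.1%, exact binomial 95% interval 54.3 to 61.8) and the type transcribed pseudogene had 85 (12.2%). Long noncoding RNA genes had 121 members (17.4%), the mixed type misc_RNA 51 (7.32%), other ncRNA genes 24 (3.44%), microRNA genes 6 and tRNA genes 5.

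Fold at these summits was close to that of shared peaks in general, and the gene types differed little. The members had a median fold of 3.98 in replicate 1 (quartiles 2.85 and 6.42) and 3.94 in replicate 2 (quartiles 2.83 and 6.27), against 3.82 and 3.79 over all shared peaks outside the spans. Pseudogene medians were 3.91 and 3.89, lncRNA medians 3.98 and 4.09, transcribed pseudogene medians 3.77 and 3.79, misc_RNA medians 4.26 and 4.01, and ncRNA medians 4.12 and 4.58, each for replicate 1 and then replicate 2. The ratio of the higher to the lower median in any pair of these 5 types was at most 1.21 (ncRNA over transcribed pseudogene in replicate 2), while the members within the pseudogene type alone ran from 1.46 to 26.5 in replicate 1. Peaks are not replicates of a gene type, so the types are described and were not tested against each other.

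**Figure D1:**
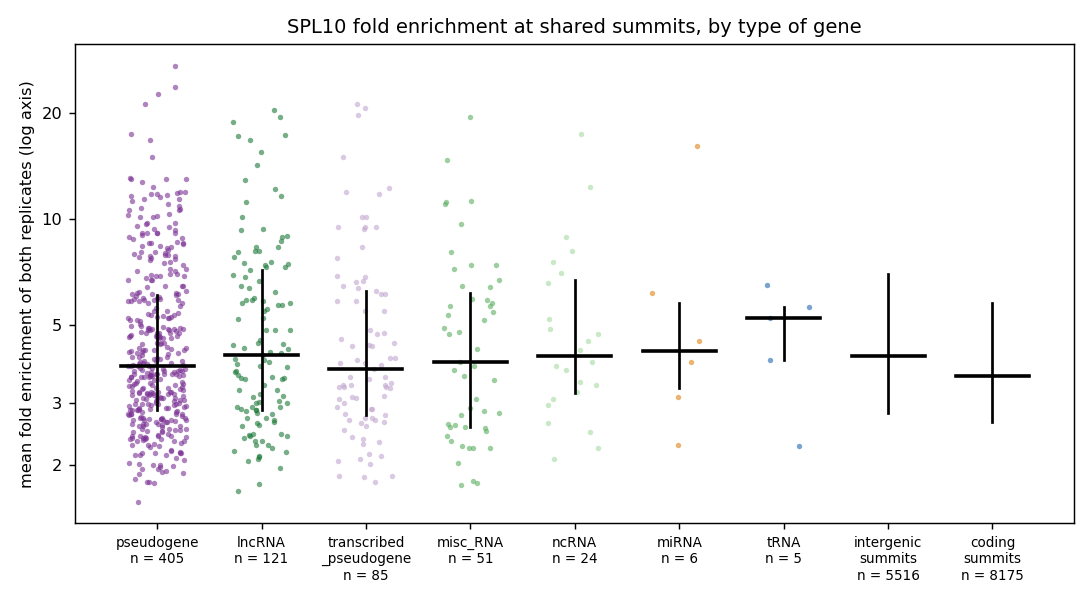
Mean fold of both replicates (geometric) at the summit for the members of each gene type (log axis). Intergenic and coding summits outside the spans are given by median and quartiles only. Medians of the mean fold lie between 3.59 and 4.10 for the 5 largest types and for intergenic and coding summits, and the ranges of all types overlap.

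A mean fold of at least 5 (the geometric mean of both replicates) was reached by 245 of the 697 members, or 35.2% (31.6 to 38.8), against 34.5% of all shared peaks outside the spans, so the members' share was near the background. A mean fold of at least 10 was reached by 65 members (9.33%), against a background of 9.81%. A −log10 q of at least 10 in both replicates was reached by 381 members (54.7%, 50.9 to 58.4), against a background of 51%. Split by type, a mean fold of 5 was reached by 33.1% of pseudogene members (28.5 to 37.9), 40.5% of lncRNA members (31.7 to 49.8), 32.9% of transcribed pseudogene members (23.1 to 44.0), 41.2% of misc_RNA members (27.6 to 55.8) and 33.3% of ncRNA members (15.6 to 55.3). These intervals overlap each other. Taken as one group, lncRNA, misc_RNA and ncRNA members reached it in 39.8% of cases (32.9 to 47.0). Members of both pseudogene types did so in 33.1% (28.9 to 37.4). For reference, it was reached by 39.6% of intergenic summits (38.3 to 40.9) and 31.0% of summits in coding genes (30 to 32.0). Intergenic summits over 2000 bp from a coding gene reached it in 42.2% of cases (38.9 to 45.7). The interval of the pseudogene types lies below both intergenic intervals.

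Local background moved with gene type. It was raised in replicate 1 for 66.4% of pseudogene members and 43.5% of transcribed pseudogene members, and for 33.9% of lncRNA members, 35.3% of misc_RNA members and 45.8% of ncRNA members. It was raised for 22.3% of intergenic summits and 51.5% of coding summits in the same list. Pseudogenes include repeated copies, and the handling of reads with several possible places is unstated in the labels and lists. The part of this in the folds was not tested.

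Requiring a peak in both lists selects for similar replicates, so the next values are given beside those of all shared peaks and as a description. Across the 697 members, log2 fold in replicate 1 and replicate 2 had a Pearson r of 0.96 and a Spearman rho of 0.94, against 0.96 and 0.94 over all shared peaks outside the spans. The ratio of replicate 2 to replicate 1 had a median of 0.996, ran from 0.515 to 1.57, and stayed within a factor of 1.5 either way for 686 members (98.4%), against 98.2% of all shared peaks outside the spans. The median gap between summits of the replicates was 13 bp for members and 13 bp for all shared peaks outside the spans. The gap was under 50 bp for 624 of the 697 members, against 12778 of the 14388 shared peaks outside the spans. A two-sided exact binomial test of how the recovered tags split between the replicates, adjusted over all shared nuclear peaks by Benjamini-Hochberg, called 0 members, with a smallest adjusted p of 1, against 0.00599% of all shared nuclear peaks (1 of 16697).

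**Figure D2:**
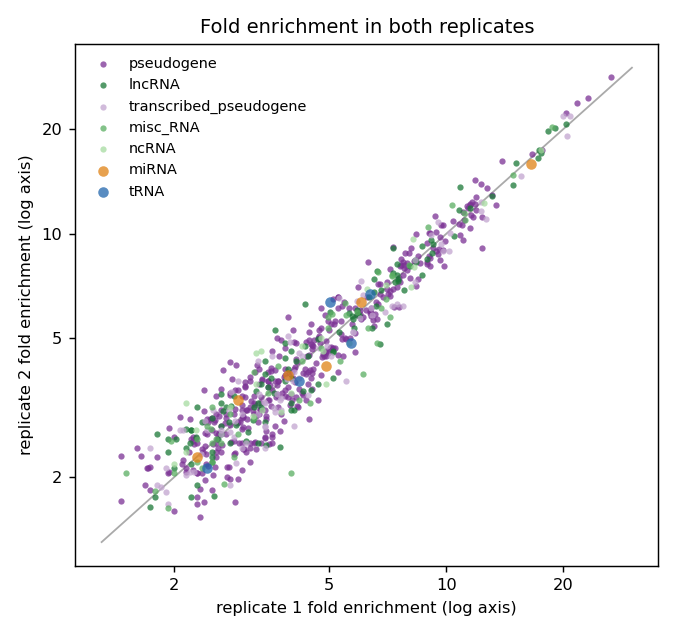
Fold of the 697 members in replicate 1 (x axis) and replicate 2 (y axis), both on log axes. Points follow the line of equal fold from 1.46 to 28.2, and 686 of 697 lie within a factor of 1.5 of it.

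Among the deposited peaks of replicate 1 with a summit in a noncoding gene outside the spans, 700 of 880 were shared (79.5%, 76.7 to 82.2), against 79.4% of those with an intergenic summit and 76.5% of those with a coding summit. For replicate 2 the noncoding share was 697 of 873 (79.8%, 77.0 to 82.5), against 80.3% and 76.9%. Peaks that were not shared were weaker in each place. Noncoding ones had median folds of 2.07 for 180 peaks of replicate 1 and 2.14 for 176 peaks of replicate 2. In the same order of replicates, these medians were 2.07 and 2.05 for coding peaks and 2.14 and 2.13 for intergenic peaks.

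Per length of DNA, summits in noncoding genes had similar densities in the 5 large types. Members lay at 145 per Mb of noncoding gene outside coding genes and spans (exact Poisson 95% interval 135 to 156), against 169 per Mb of intergenic DNA (164 to 173) and 132 per Mb of coding gene bodies (129 to 134). The density was 147 per Mb in pseudogenes (133 to 162), 151 in lncRNA genes (125 to 181), 126 in transcribed pseudogenes (100 to 155), 145 in misc_RNA genes (108 to 191) and 126 in ncRNA genes (80.4 to 187). Intervals of these 5 types overlap, and that of the members together lies below the intergenic interval. Neighbouring summits are not independent, so these counting intervals may be too narrow.

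**Figure D3:**
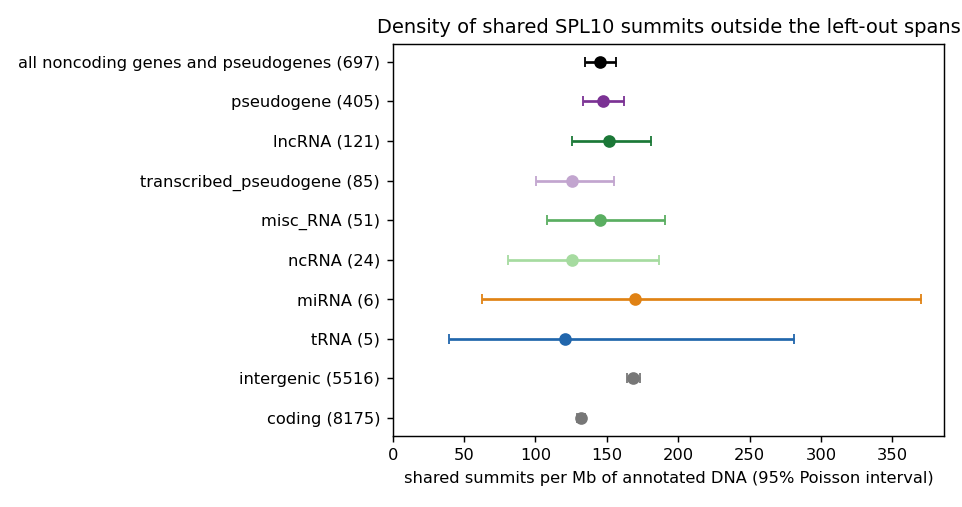
Shared summits per Mb by gene type, with intergenic DNA and coding gene bodies (points, with exact Poisson 95% intervals). All 5 large noncoding types lie between 126 and 151 per Mb, and the intervals of microRNA and tRNA genes are wide because they rest on 6 and 5 summits.

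The share of genes that held a summit differed between types whose genes differ in length. Of 1171 pseudogenes with sequence outside coding genes and spans, 301 held a member (25.7%), and their median length was 1986 bp. Of 2322 lncRNA genes with a median length of 329 bp, 118 held one (5.08%). No member lay in snoRNA genes, which allows a share of up to 1.52% by the limit of 3 counts and 1.85% by the exact binomial interval, nor in the 54 snRNA genes, which allows up to 5.56% and 6.60%. Antisense RNA genes (4) and rRNA genes (2) were too few to describe.

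The 5 strongest lncRNA summits had folds between 17.1 and 20.6 in either replicate. AT3G04575, an lncRNA gene of 392 bp that overlaps another lncRNA gene, AT3G04565, held a peak on chromosome 3 at 8490784 to 8491287 (TAIR10, replicate 1). Its fold was 20.3 in replicate 1 and 20.6 in replicate 2. The summit lay 792 bp from IPT7, which encodes an isopentenyltransferase of cytokinin synthesis. AT1G05233 held a summit of fold 19 and 20.1 at 1786 bp from AT1G16510, the small auxin-upregulated gene SAUR41. AT4G28162 had folds of 18.2 and 19.8, AT1G06383 17.4 and 17.4, and AT1G01448 17.5 and 17.1, each with a nearest coding gene that the table leaves unnamed. Each of these 5 had replicate folds within a factor of 1.5. Distance to a coding gene is a position and does not make that gene a target.

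Other RNA genes gave somewhat lower maxima. The strongest misc_RNA members were AT4G03335 (fold 18.7 and 20.3) and AT1G09955 (14.8 and 14.7). AT2G00830 had folds of 11.1 (9.46 to 13) and 11.5 (9.73 to 13.4), 555 bp from ATCOAE, an enzyme of coenzyme A synthesis. AT2G00900 had folds of 10.4 (8.88 to 12) and 12.1 (10.4 to 14.1) at 2073 bp from MAX2, the F-box protein of strigolactone and karrikin signalling. AT4G03385 completed these 5 with folds of 11.2 and 10.9.

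Among ncRNA genes, AT3G60238 came first with folds of 17.6 and 17.4, 1822 bp from EIF4G, a translation initiation factor. AT4G13495 followed with 12.5 (10.7 to 14.4) and 12.2 (10.4 to 14.3). AT3G06125, an ncRNA gene of 1749 bp near MUTE, the bHLH factor that commits stomatal precursors, held a pair of summits. One had folds of 8.23 (6.81 to 9.86) and 9.67 (8.07 to 11.5) at 2265 bp from MUTE, and the other, named after its values were seen, had 6.98 (5.85 to 8.27) and 7.10 (5.92 to 8.45) at 602 bp. AT4G16892 had folds of 8.24 (6.92 to 9.74) and 8 (6.66 to 9.54) at 692 bp from SNC1, an immune receptor of the NLR class. AT2G09475 had 8.12 (6.80 to 9.61) and 7.01 (5.80 to 8.4). For each of these genes with intervals in both replicates, the intervals overlapped.

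The strongest members of all lay in pseudogenes on chromosome 4. AT4G02314, a pseudogene of 2391 bp, had a peak at 1019702 to 1020489 with 373 tags in each replicate, giving folds of 26.5 in replicate 1 and 28.2 in replicate 2, near the ceiling of 396 tags. AT4G04140 followed with 23.2 and 24.6, AT4G04130 with 21.6 and 23.8, and AT4G03305 with 20.3 and 22.3. Their nearest coding genes were 2758 to 11702 bp away, so these summits had no close coding neighbour. AT4G17450, also on chromosome 4, had 17.6 and 17.4 at 2402 bp from HAT1, a class II HD-ZIP factor.

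Transcribed pseudogenes reached similar folds. AT4G01505 had 20.7 and 21.7 at 605 bp from NGA4, a B3-domain factor of the NGATHA family that acts in leaf and gynoecium development. AT2G01372 had 19.9 and 21.7, and AT1G52211 had 20.5 and 19.1 at 2099 bp from AT1G52220, the thylakoid curvature protein CURT1C. AT3G17715 had 15.5 and 14.6, and AT1G55964 had 12.3 (10.5 to 14.2) and 12.3 (10.5 to 14.3) at 616 bp from HAC4, a histone acetyltransferase. In 2 of these 5, AT4G01505 and AT2G01372, both replicates lay at or above 19.9. Pseudogenes with a symbol of their own were few among the members, and RE2, a retrotransposon copy picked after its values were seen, had folds of 7.84 (6.74 to 9.08) and 8.82 (7.54 to 10.3).

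The part of chromosome 4 before the left-out span had the highest share of strong members, as was seen after the values were known. Its 31 members, 27 of them in pseudogene types, had a median fold of 6.42 in replicate 1 and 5.82 in replicate 2, and 19 of 31 (61.3%, 42.2 to 78.2) reached a mean fold of 5, against 36.5% of the 260 shared summits on that arm. On the other 9 arms the members' share ran from 26.7% to 37.2%. The 5 strongest members of all lie on this arm. The 260 summits include the 31 members. Several members lie close together, 5 of them in the pseudogene AT4G03300, so the interval may be too narrow. The peaks of AT4G04130 (1980524 to 1982176, replicate 1) and AT4G04140 (1985136 to 1985954) lie near the span limit at 2 Mb. Because the arm was picked out from 10 by its values, no test is given.

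**Figure D4:**
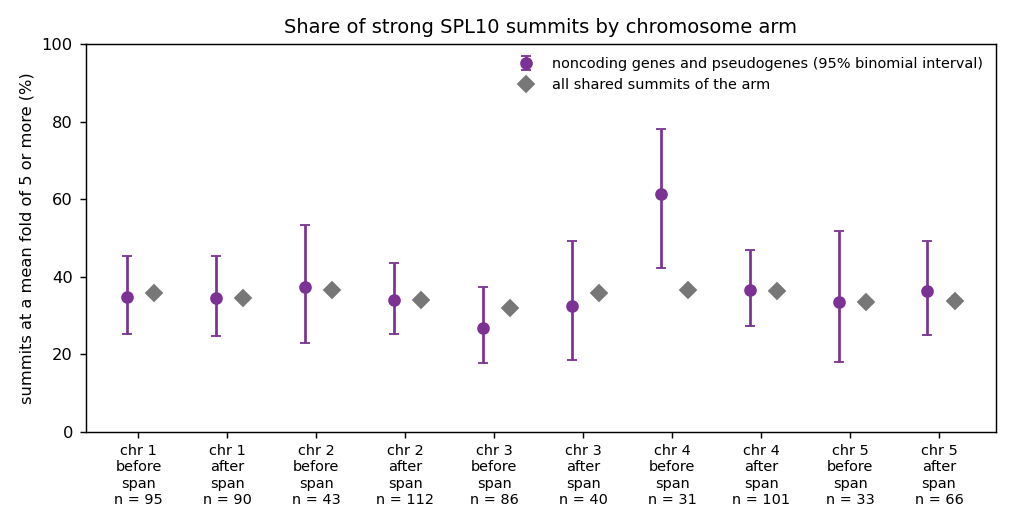
Percent of members with a mean fold of at least 5 on each chromosome arm (with exact binomial 95% intervals), beside the same percent over all shared summits of the arm. Chromosome 4 before its span stands at 61.3%, and the members of the other arms lie between 26.7% and 37.2%.

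Most genes held a single member. A single summit lay in 511 genes and 2 in 52, among them 3 lncRNA genes, 1 misc_RNA gene and 2 ncRNA genes, and 3 or more in 20 genes, all of the pseudogene type, which together held 82 members. Local background was raised at 86.6% of those 82 summits in replicate 1 and 84.1% in replicate 2, against 50.1% and 50.2% of the 615 members in genes with 1 or 2. The 615 include other gene types. Of the 239 pseudogene members alone in their gene, 61.5% in replicate 1 and 60.7% in replicate 2 had raised background. Median folds of the 82 were 3.86 and 4, against 3.98 and 3.88 for the 615.

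Of the 9 pseudogenes with 5 or 6 summits, 6 had 5 summits at matching places along the gene. The places matched against were those of AT1G27780, which is among the 6, so its own match was fixed in advance. These 6 genes are AT1G27780, AT1G52020 and AT1G25886 on chromosome 1, AT2G14770 on chromosome 2, AT3G24390 on chromosome 3 and AT5G36860 on chromosome 5, and they hold 32 members. Measured from one end of the gene, summits lay at 479 to 497 bp, 1026 to 1065 bp, 2303 to 2315 bp, 3056 to 3264 bp and 4073 to 4193 bp in all 6, with matches allowed within 200 bp. In 5 of the 6 the last of these was the strongest, with folds from 10.4 to 13.1 in replicate 1 and from 10.9 to 13.5 in replicate 2. AT1G52020 was the exception, with 3.43 and 2.99 there and its strongest summit, 9.64 and 8.42, at 5079 bp. AT1G27780 also had a further summit, at 5031 bp with folds of 11.8 and 12.2, close to those of its strongest. The summit near 3056 to 3264 bp was weak throughout, with folds from 1.46 to 3.50 in replicate 1 and from 1.70 to 3.58 in replicate 2. This layout was found after the values were seen, the other 3 genes (AT1G45090, AT4G03300 and AT4G08880) did not show it, and whether the 6 genes are copies of one sequence, or share reads, was not tested.

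**Figure D5:**
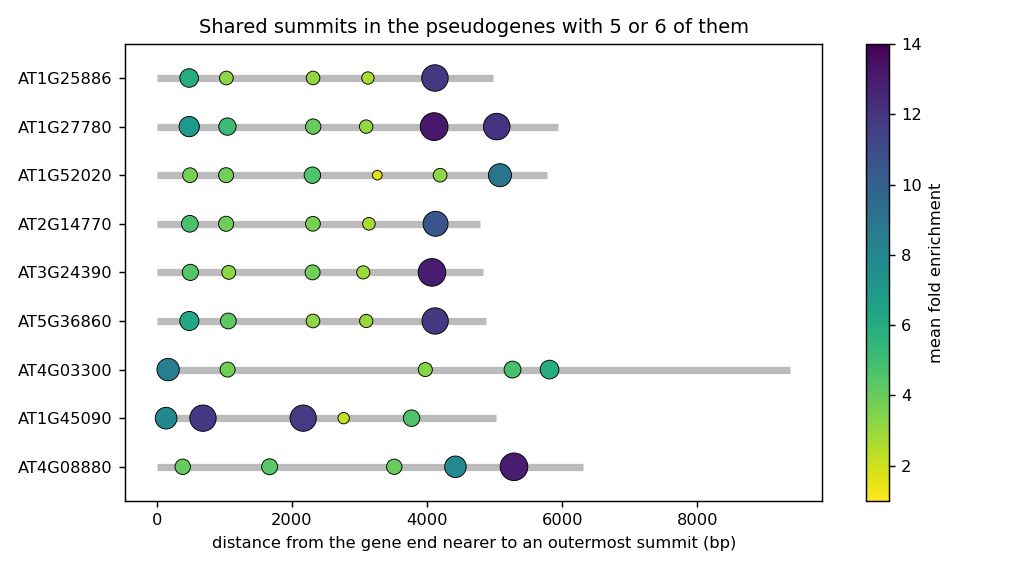
Summit positions along the 9 pseudogenes with 5 or more members, in bp from one end, with symbol size by fold. In 6 genes summits fall in 5 common positions, which were set by AT1G27780. The summit at 4073 to 4193 bp is the strongest in 5 of these genes. AT1G27780 and AT1G52020 each hold a further summit beyond these positions.

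In microRNA genes, 6 summits were members. MIR5651 (AT3G07515) had folds of 16.5 and 15.9, with 232 and 209 tags, at 33 bp from RDUF1, an E3 ubiquitin ligase. MIR849 had 6.03 (4.83 to 7.45) and 6.35 (5.08 to 7.85), and MIR5014b had 4.9 (3.83 to 6.19) and 4.16 (3.15 to 5.40). MIR426 had 3.91 and 3.94, MIR169c, of a family that targets NF-YA transcription factors, 2.92 and 3.33, and MIR5638b 2.28 and 2.28. MIR5651 was therefore more than 2 times as enriched as the next microRNA gene in both replicates. MicroRNA genes are short, and per length their 6 summits came to 170 per Mb (62.4 to 370), against 145 per Mb for all members. A shared summit lay within 1000 bp of 97 of 326 microRNA genes (29.8%), against 33.0% of lncRNA genes, 36.2% of ncRNA genes and 43.3% of pseudogenes. These shares include genes inside the left-out spans. Outside them lie 291 of the 326 microRNA genes but only 1189 of 3917 pseudogenes. Gene length differs too, with medians of 139.5 bp and 1986 bp for those with sequence outside coding genes and spans. The shares are therefore not like for like.

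By family, 0 of the 12 MIR156 and MIR157 genes, whose microRNAs target SPL messenger RNAs, held a member, and 8 had a shared summit within 1000 bp. For MIR172, which acts after miR156 in phase change, these were 0 and 3 of 5. For the copper-responsive genes MIR397, MIR398, MIR408 and MIR857 they were 0 and 6 of 7, and for the other 302 microRNA genes 6 and 80 (26.5%). MIR857 and MIR397b were counted on the same summit (fold 16.8 and 18.2). MIR397a lies inside a left-out span, so it could not hold a member, and the summit near it lies in a coding gene. Of the other 302 genes, 268 lie outside the spans. The lists were chosen with earlier results of these data known, so these counts are a description.

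Of the trans-acting siRNA genes, 7 of the 8 looked for were in the table, and TAS1A held a member. TAS1A makes siRNAs after cleavage by miR173. Its fold was 3.18 (2.39 to 4.16) in replicate 1 and 3 (2.21 to 3.99) in replicate 2, below the median of the ncRNA members. Of 6 named long noncoding RNAs (IPS1, AT4, APOLO, ELENA1, HID1 and DRIR), none had a shared summit within 1000 bp (0 of 6, exact binomial interval up to 45.9%), a number too small to set against other genes. The table types IPS1, AT4 and APOLO as protein-coding, so these could not be members, and HID1 as snoRNA.

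All 5 tRNA members lay in glycine tRNA genes, as was seen after the values were known. These genes are 71 bp long, and 5 of the 40 glycine tRNA genes outside the spans held a member (12.5%, 4.19 to 26.8), against 0 of 555 for other residues, which allows a share of up to 0.541% by the limit of 3 counts and 0.662% by the exact interval. Within 100 bp, 8 of 40 glycine genes had a shared summit (20%, 9.05 to 35.6), against 11 of 555 others (1.98%, 0.993 to 3.52). Among those others, glutamine tRNA genes had 3 of 16 (18.8%, 4.05 to 45.6), close to the glycine share, so a summit within 100 bp was not particular to glycine. AT5G53487 had folds of 6.35 (5.16 to 7.75) and 6.70 (5.43 to 8.18), AT2G47740 5.03 (3.98 to 6.29) and 6.34 (5.11 to 7.79) at 245 bp from GH3.9, and AT4G24025 5.68 (4.51 to 7.06) and 4.84 (3.74 to 6.17). AT4G10815 had 4.17 and 3.78, and AT1G60840 had 2.42 and 2.13. All 5 lay within 1000 bp of a coding gene, at a median of 94 bp. Among genes outside the spans, 27 glycine tRNA genes and 2 tRNA genes of other residues are 71 bp long, and read sharing between such copies was not tested.

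Members in pseudogenes lay farther from coding genes than members of the other large types. Within 1000 bp of a coding gene lay 200 of the 697 members (28.7%, 25.4 to 32.2), made up of 11.4% of pseudogene members (8.44 to 14.9), 43.5% of transcribed pseudogene members (32.8 to 54.7), 60.3% of lncRNA members (51 to 69.1), 47.1% of misc_RNA members (32.9 to 61.5) and 54.2% of ncRNA members (32.8 to 74.4). The intervals of the last 4 types overlap. The median distances were 3014, 1176, 741, 1019 and 806 bp in the same order of types. The genes also differed in length, with a median of 3720 bp for pseudogene members and 391 bp for lncRNA members. How far the genes of each type lie from coding genes was not compared, so the distances may describe the genes more than the summits. Intergenic summits lay within 1000 bp in 63.4% of cases. Over all members, a mean fold of 5 was reached by 35.5% within 500 bp, 36.4% from 500 to 1000 bp, 31.4% from 1000 to 2000 bp, 36.8% from 2000 to 5000 bp and 36.3% beyond. For both pseudogene types the shares in the same order of distance were 19.2% (6.55 to 39.4), 28.1% (17.0 to 41.5), 32.7% (24.2 to 42.2), 35.1% (28.3 to 42.5) and 35.8% (26.8 to 45.5), with overlapping intervals. For intergenic summits they were 36.9%, 40.2%, 42.3%, 41.0% and 48.0%.

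Along the gene, 216 of the 697 members (31.0%, 27.6 to 34.6) lay in the central one of 3 equal parts of the gene's length. For misc_RNA genes it was 8 of 51 (15.7%, 7.02 to 28.6), the lowest share of the 5 large types. Evenly placed summits would also lie mostly in the outer parts, as they did in each large type. The outer parts held 286 of 405 pseudogene, 80 of 121 lncRNA and 54 of 85 transcribed pseudogene members. For misc_RNA and ncRNA they held 43 of 51 and 15 of 24. Of misc_RNA summits, 25.5% lay within 100 bp of an end, against 22.0% of all members. This share was 10.4% for pseudogene, 18.8% for transcribed pseudogene and 29.2% for ncRNA members. In lncRNA genes, 65 of 121 summits (53.7%) lay within 100 bp of an end. The genes of these members had a median length of 391 bp, so such a distance covers much of a typical gene. The table gives no strand, so start and end could not be told apart. Of the members, 17 lay in more than 1 noncoding gene and were counted under the shorter one.

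The members at the middle of the ranking show what a typical noncoding summit looks like. The pseudogene AT3G25815 had folds of 3.98 (3.05 to 5.11) and 3.84 (2.94 to 4.95) from 59 and 58 tags. AT1G62095 had 4.04 and 3.79, AT4G16910 4.07 and 3.75, AT1G65642 4.41 and 3.43, and the lncRNA gene AT1G07683 4.29 and 3.53. All 5 had overlapping counting intervals in the replicates.

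At the limits of the rule, the members nearest to 50% overlap were AT2G04036 at 50.2% (fold 6.88 and 6.58), AT1G47930 at 50.6% (1.73 and 2.43) and AT3G52742 at 51% (4.83 and 4.61). Just outside were AT2G14970 at 49.9% (3.77 and 3.63), AT1G05003 at 49.8% (5.89 and 5.22) and AT5G36732 at 49.5% (3.20 and 2.58). The pseudogene AT2G05450 crosses a span limit, with summits at 1025, 1617 and 2548 bp outside it (folds 11 and 11.5, 2.42 and 2.32, 4.04 and 5.29) and one 456 bp inside (8.72 and 9.03). The other nearest summits inside a span were AT3G44325 at 142 bp (3.79 and 4.23) and AT5G35820 at 3290 bp (9.50 and 7.56). Folds inside and outside both limits overlap.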

How the data were processed

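The authors deposited 1 peak list per precipitated sample and an alignment log for the input. Per the submitters' processing notes, cutadapt was used and the build is TAIR10. Peak names carry the name MACS; neither its version nor its settings are given in the sources here. The columns as deposited hold a score, a fold (a ratio to the caller's background), −log10 p and q, and the summit position.

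Reciprocal overlap of 50% defined shared peaks. Tag numbers came from solving each deposited fold and −log10 p for whole tags; this was tested on simulated data (100% and 99.99% of simulated summits returned, with simulated depth ratios close to those of replicates 1 and 2 and a somewhat lower background and tag ceiling). Gene types came from the RefSeq table of TAIR10.1, whose coordinates are not printed. Named members are the 5 strongest of each type with at least 20 members, the 3 strongest of smaller types, further microRNA genes, members of the gene lists and the 5 members nearest the median rank; those outside the rule are marked. Members and lists were chosen with earlier results of these data known. Gene types were not tested, since peaks are not replicates. Alternatives changed the overlap limit, the q limit, the replicates used, the spans and the distance to coding genes. No genome sequence was used here, so no sequence is printed and the planned motif count was not made. Python 3.11.15, pandas 2.3.3, NumPy 2.4.6, SciPy 1.17.1 and statsmodels 0.14.6 were used.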

Additional observations from a re-analysis of the deposited data

How the results depend on the processing

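Numbers, medians and shares by type were recomputed 1 choice at a time; density and distance to coding genes had their own alternatives, and the arm, tRNA, layout and position values had none. Requiring 80% overlap gave a median fold of 4.36 over all members, 4.18 for pseudogenes and 5.26 for lncRNA genes, and 41.1% reached a mean fold of 5. Requiring a −log10 q of at least 10 in both replicates left 381 members with a median fold of 5.96 (pseudogenes 5.86, lncRNA 6.66, transcribed pseudogenes 6.25, misc_RNA 6.18, ncRNA 6.82), and 64.3% reached 5; this filter removes weak peaks by construction. Using 1 replicate alone, with all its peaks, gave medians of 3.39 to 3.41 over all members, 3.48 to 3.49 for pseudogenes, 3.27 to 3.44 for lncRNA genes, 3.13 to 3.41 for transcribed pseudogenes and 3.21 to 3.26 for ncRNA genes, and shares past 5 of 29.4% to 29.7%. Keeping the spans gave 1601 members, leaving out summits with raised background gave a transcribed pseudogene median of 4.47, and a fold of 10 gave 9.33%. Counted within 500 or 2000 bp of a coding gene, the members' share was 13.3% or 53.8%. Leaving out genes with 3 or more members, or chromosome 4 before its span, both chosen after seeing the data, gave medians of 3.91 and 3.86 over all members and shares past 5 of 35.6% and 33.9%. Among the other values of single types, 18 moved past their interval or by over 1.5 times and 112 did not. The order of the types was not stable. With recovered tags in place of fold, the type median over that of all members was 1.03 for pseudogenes (0.98 by fold), 0.96 for lncRNA (1.05), 0.96 for misc_RNA (1.00) and 0.96 for ncRNA (1.05). In replicate 1 alone the lncRNA median (3.27) lay below that of pseudogenes (3.49), and with raised background left out misc_RNA was lowest of the 5 large types at 3.48. No paired analysis was possible because the input has only an alignment log and no test compares groups. Depth limits single folds: with 59 tags, AT3G25815 had a fold of 3.98 with a counting interval from 3.05 to 5.11.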

Other observations

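Inside the left-out spans, 904 shared summits lay in noncoding genes, 880 of them in pseudogene types. Their median folds were 3.63 and 3.55, and 30.3% (27.3 to 33.4) reached a mean fold of 5, while 6.64% reached 10. Among noncoding peaks outside the spans with no 50% reciprocal overlap in the other list, the strongest had a fold of 9 in replicate 1 and 10.4 in replicate 2.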
